A study of Mus musculus with 8 samples.

Results

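TAC was compared with sham surgery in the hearts of Piezo1-Cko mice, to ask which transcripts differed after pressure overload in this genotype. The comparison sets 2 Cko TAC libraries against 2 Cko sham libraries of RNA from heart tissue of strain C57BL/6. Wild-type (WT) hearts of the same strain gave 2 TAC and 2 sham libraries, which entered the fit and are used below where the responses of the genotypes are set side by side. In TAC (transverse aortic constriction) the aorta is tied narrower, so that the left ventricle pumps against a raised pressure, and in sham surgery it is not. The age and sex of the mice, the time after surgery, the Cre driver, the deleted exons and the cells that carry the deletion are not given in the sources used here. Nor do the labels say whether each library is a separate animal, and a p-value here therefore measures the spread among these samples alone, which may be technical. Of 54532 genes listed, 14817 had at least 0.5 FPKM (fragments per gene length and library size, here a library size scaled between samples) in at least 2 of the 8 libraries. Of these, 13928 also had at least 10 reads in at least 2 libraries and were tested.

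Piezo1 is a cation channel that opens when the membrane is stretched, and it is found in heart muscle cells, fibroblasts and the vessel lining. A heart under pressure overload enlarges its muscle cells, turns on genes of the fetal ventricle, deposits matrix from activated fibroblasts, takes in macrophages and lowers much of its fatty acid burning machinery. Bulk tissue RNA sums all of these cells, so fewer cells of a type and less RNA per cell cannot be told apart. Fold changes below are Cko TAC over Cko sham in log2(FPKM + 0.5), a scale that understates changes of low genes. A gene is said to have risen or fallen only where the limma test gave a Benjamini-Hochberg adjusted p under 0.05 over all genes tested.

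Reads recovered from the deposited values came to 16734502 and 16523039 in Cko TAC libraries, against 16865275 and 16202258 in Cko sham libraries. Piezo1 was at 5.24 and 3.89 FPKM in Cko TAC libraries, against 3.83 and 3.23 FPKM in Cko sham libraries, a log2 fold change of 0.32 (SE 0.186, limma adjusted p = 0.359). Against WT it differed by a log2 value of -0.28 under TAC and 0.33 under sham (SE 0.186 each, limma adjusted p = 0.652 and 0.774). In WT hearts Piezo1 was at 5.38 and 5.83 FPKM under TAC, against 2.35 and 3.09 FPKM under sham. The WT log2 fold change was 0.93 (SE 0.186, limma adjusted p = 0.0256), which was called. The difference of responses, Cko minus WT, was -0.61 and did not pass (SE 0.262, limma adjusted p = 0.911). A gene total keeps reads from exons outside a deletion, and the span of Piezo1 overlaps Ctu2, which leaves the genotype label unchecked by this total. The ventricular markers Myl2, Myl3, Irx4 and Hey2 summed to 4497 and 6231 FPKM in Cko TAC libraries, against 9075 and 8277 FPKM in Cko sham libraries. Nearly all of each sum was Myl2 and Myl3, and none of these 4 markers was called. Irx4 was at 13.7 and 13.8 FPKM in Cko TAC libraries, against 13.9 and 14.5 in Cko sham libraries. Hey2 was at 1.07 and 1.17 FPKM, against 1.58 and 1.19. The 5 atrial markers summed to at most 3.24 FPKM in any Cko library, and the lung and liver markers to at most 0.411 FPKM. In WT libraries the atrial markers summed to 26.6 and 2.30 FPKM under TAC and to 519 and 2.51 FPKM under sham, with Myl7, the atrial myosin light chain, at 394 FPKM in WT sham replicate 1 and at most 0.273 FPKM in the other WT libraries. WT sham replicate 1 stood apart for atrial transcripts, and their part in the WT values and in the shared estimate of spread was not tested.

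In Cko hearts, 132 genes rose with TAC (0.948% of those tested) and 76 fell (0.546%). Together these 208 were 1.49% of genes tested, and 3036 genes (21.8%) had an unadjusted p under 0.05. All 208 had libraries that did not overlap between Cko TAC and Cko sham, where 28.0% of tested genes lay wholly higher in TAC and 28.3% wholly lower. Where a called gene is said below to have its groups apart, this therefore adds nothing to its call. The median log2 fold change was 1.36 over the genes that rose, -1.11 over those that fell and -0.00 over all tested. When the libraries were scaled to total reads instead, the median over all tested moved to 0.18 and the split was 443 higher of 513 called. The calls were close to the threshold, with a smallest adjusted p of 0.0230. Of the 64 named genes that were called, none passed without Cko sham replicate 1 (limma adjusted p 0.171 to 0.293) or Cko sham replicate 2 (0.0746 to 0.23). Without Cko TAC replicate 1 the named genes Timp1, Tnc, Mki67 and Inmt passed. Over all genes the count was 0 without either Cko sham library, 6 without Cko TAC replicate 1 and 378 without Cko TAC replicate 2. It was 95 and 94 without WT sham replicates 1 and 2, and 357 and 362 without WT TAC replicates 1 and 2.

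**Figure D1:**
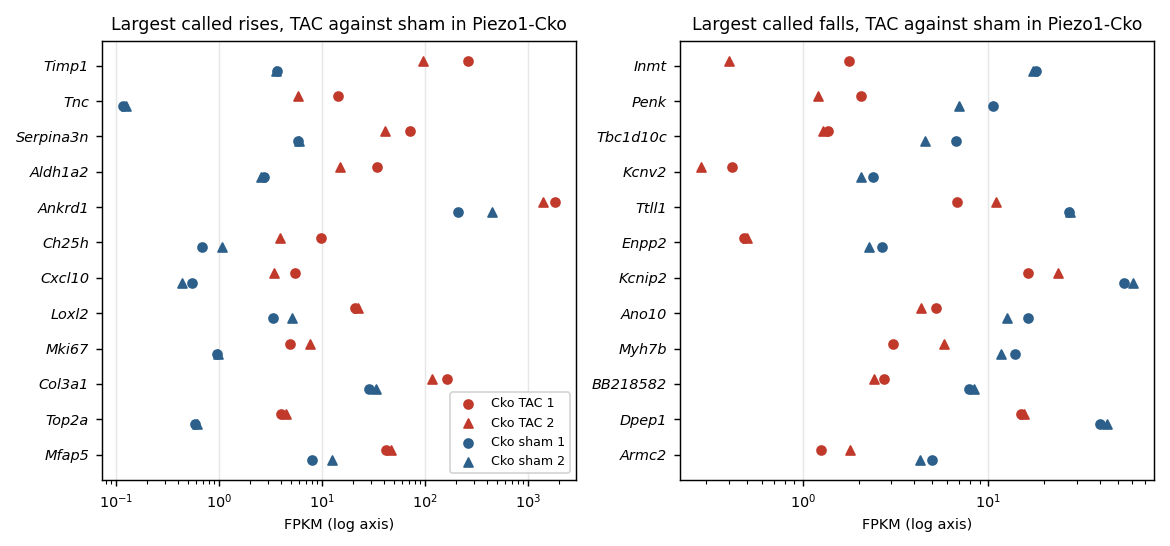
FPKM on a log axis in each Cko TAC library (red) and each Cko sham library (blue) for the 12 largest rises (left) and 12 largest falls (right) among called genes with a mean of at least 1 FPKM; circles are replicate 1 and triangles replicate 2. Red and blue points do not overlap for any of these genes, because the choice required it, and Timp1 and Tnc show the widest gap among the rises.

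Genes of matrix breakdown and its control were led by Timp1, a secreted inhibitor of matrix metalloproteinases (GRCm38 chromosome X, 20870166 to 20874735, plus strand, overlapping Syn1). Timp1 was at 262 and 96.7 FPKM in Cko TAC libraries, against 3.68 and 3.60 FPKM in Cko sham libraries, a log2 fold change of 5.27 (SE 0.406, limma adjusted p = 0.0230). Both TAC libraries lay far above both sham libraries, and replicate 1 was the higher of the TAC pair. Of 25 tested proteases and protease inhibitors of the matrix, 3 rose and none fell, where 0.948% of all genes tested rose. The list median log2 fold change was 0.57. The serpin gene Serpina3n was at 71.1 and 40.5 FPKM in Cko TAC libraries, against 5.79 and 5.95 in Cko sham libraries. Adamts8, a secreted metalloproteinase, was at 2.13 and 1.91 FPKM in Cko TAC libraries, against 0.0849 and 0.241 in Cko sham libraries, a log2 fold change of 1.93 (SE 0.259, limma adjusted p = 0.0296). The log2 fold change of Timp1 was 4.55 without Cko TAC replicate 1 and 5.99 without replicate 2. Serpina3n and Adamts8 did not pass without Cko TAC replicate 1 (limma adjusted p = 0.114 and 0.16).

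Matricellular proteins sit in the matrix and signal to cells. Of 23 tested, 3 rose and none fell, where 0.948% of all genes tested rose, and the median log2 fold change was 0.95. Tnc, which encodes tenascin C, was at 14.2 and 5.89 FPKM in Cko TAC libraries, against 0.118 and 0.126 in Cko sham libraries (log2 fold change 3.96, SE 0.375, limma adjusted p = 0.0230). The collagen-binding Sparc was at 528 and 614 FPKM in Cko TAC libraries, against 194 and 229 in Cko sham libraries (log2 fold change 1.43). Fbln2, which encodes the fibre protein fibulin 2, was at 49.0 and 40.8 FPKM in Cko TAC libraries, against 21.5 and 24.4 in Cko sham libraries (0.95). In all 3 genes the groups were apart, and Tnc was the only one of them under 0.5 FPKM in the sham libraries. Several large differences in this list were not called. The osteopontin gene Spp1 was at 58.1 and 4.81 FPKM in Cko TAC libraries, against 0.396 and 0.436 in Cko sham libraries (log2 fold change 4.27, SE 1.03, limma adjusted p = 0.0785). The periostin gene Postn was at 56.4 and 60.4 FPKM in Cko TAC libraries, against 4.88 and 7.29 in Cko sham libraries (3.18, SE 0.627, limma adjusted p = 0.0547). Postn passed without WT TAC replicate 1 or 2 (limma adjusted p 0.0264 and 0.0262), and Spp1 without Cko TAC replicate 2 (0.0258), when its log2 fold change was 6.00, against 2.54 without Cko TAC replicate 1. The log2 fold change of Tnc was 3.36 without Cko TAC replicate 1, 4.56 without replicate 2 and 6.19 with limma-voom on the recovered reads (limma adjusted p = 0.0509). Sparc and Fbln2 did not pass without Cko TAC replicate 2 (limma adjusted p = 0.0803 and 0.0548), nor without Cko TAC replicate 1 (0.202 and 0.236).

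Collagen chains build the fibres and basement membranes of the matrix. Of 21 tested, 6 rose and none fell, where 0.948% of all genes tested rose. The median log2 fold change was 1.15. Libraries lay wholly higher in Cko TAC for 18 of the 21, against 28.0% of all genes tested. The fibrillar chain Col3a1 was at 164 and 117 FPKM in Cko TAC libraries, against 28.3 and 33.1 in Cko sham libraries (log2 fold change 2.16, SE 0.267, limma adjusted p = 0.0296). Col5a1, a chain of type V collagen that joins fibrils, was at 24.2 and 18.0 FPKM in Cko TAC libraries, against 5.79 and 6.85 in Cko sham libraries (1.65). Rises reached chains outside the fibrils too. The basement membrane chain Col4a2, which overlaps Col4a1, was at 143 and 149 FPKM in Cko TAC libraries, against 63.9 and 71.4 in Cko sham libraries (1.11). Col15a1, a basement membrane zone collagen, was at 48.7 and 43.0 FPKM in Cko TAC libraries, against 16.5 and 19.2 in Cko sham libraries (1.34). Col6a3, a chain of the beaded microfilaments, had a log2 fold change of 1.12. Col1a1, the main fibrillar chain, was at 77.5 and 48.5 FPKM in Cko TAC libraries, against 12.02 and 16.8 in Cko sham libraries, and was not called (2.07, SE 0.513, limma adjusted p = 0.0805). Col1a1 passed without WT TAC replicate 1 or 2 (0.0394 and 0.0396). Leaving out Cko TAC replicate 1 ended the calls of Col3a1, Col5a1, Col15a1, Col6a3 and Col4a2 (limma adjusted p 0.154 to 0.181), and leaving out WT sham replicate 1 or 2 ended those of Col5a1 and Col6a3 (0.0522 to 0.0535).

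Of 21 genes that process and cross-link collagen, Loxl2 alone was called, where 1.49% of all genes tested were. The list median was 0.88. Loxl2, a lysyl oxidase-like enzyme, was at 20.7 and 22.5 FPKM in Cko TAC libraries, against 3.34 and 5.08 in Cko sham libraries (log2 fold change 2.25, SE 0.195, limma adjusted p = 0.0230). Its TAC libraries were close to each other, unlike those of Lox, the founding enzyme of the family, at 23.95 and 10.05 FPKM in Cko TAC libraries and 2.24 and 2.19 in Cko sham libraries. Lox was not called (2.57, SE 0.727, limma adjusted p = 0.103), but passed without WT TAC replicate 1 or 2 (0.0394 and 0.0396). Of 23 proteoglycan and elastic fibre genes, 4 rose and none fell, where 0.948% of all genes tested rose, and the median was 0.64. Mfap5, a microfibril protein, was at 41.9 and 46.4 FPKM in Cko TAC libraries, against 7.91 and 12.5 in Cko sham libraries (2.09). Vcan, the large proteoglycan versican, was at 7.37 and 5.10 FPKM in Cko TAC libraries, against 1.08 and 1.48 in Cko sham libraries (1.91). Fbn1, the fibrillin of microfibrils, was at 28.7 and 17.6 FPKM in Cko TAC libraries, against 7.36 and 6.39 in Cko sham libraries (1.64). Cd44, the cell-surface receptor for hyaluronan, was at 7.63 and 4.19 FPKM in Cko TAC libraries, against 1.86 and 1.86 in Cko sham libraries (1.39). The groups were apart in all 4. The limma adjusted p without Cko TAC replicate 1 was 0.0785 for Loxl2 and 0.16 to 0.202 for these 4, and without Cko TAC replicate 2 it was 0.073 for Mfap5. Without WT sham replicate 1 or 2, Mfap5, Fbn1 and Cd44 did not pass (0.0574 to 0.0636).

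Of 24 integrin and laminin genes, 2 rose and none fell, where 0.948% of all genes tested rose. The median log2 fold change was 0.29. Lamc1, the gamma chain of most laminins, was at 43.3 and 41.6 FPKM in Cko TAC libraries, against 22.99 and 26.3 in Cko sham libraries (0.77). Itga5, the alpha subunit of the fibronectin receptor, was at 26.9 and 19.6 FPKM in Cko TAC libraries, against 11.7 and 12.02 in Cko sham libraries (0.92). The TGF-beta family list had 1 rise among 24 members and a median of 0.21. That member was Fstl1, a secreted follistatin-like glycoprotein, at 109 and 96.4 FPKM in Cko TAC libraries, against 23.9 and 29.0 in Cko sham libraries (1.94, SE 0.287, limma adjusted p = 0.0343). The ligand genes Tgfb1, Tgfb2 and Tgfb3 had log2 fold changes of 0.15, 1.05 and 0.55 and none was called. Among 21 myofibroblast genes none was called, with a median of 0.47, and Acta2, the smooth muscle actin of activated fibroblasts, had a log2 fold change of 0.42. The 6 fibroblast markers were Pdgfra, Tcf21, Dcn, Lum, Col15a1 and Gsn. They summed to 602 and 505 FPKM in Cko TAC libraries, against 863 and 862 in Cko sham libraries. Of the markers 2 were wholly higher and 2 wholly lower in Cko TAC, and Gsn alone was at 370 and 303 FPKM, against 669 and 677. Their part in the matrix changes was not tested. None of the 26 YAP/TAZ and SRF targets (median 0.17) or 16 Wnt ligands and inhibitors (median 0.18) was called. Lamc1, Itga5 and Fstl1 did not pass without Cko TAC replicate 1 (limma adjusted p 0.172 to 0.207) or without WT sham replicate 1 or 2 (0.0511 to 0.0636).

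**Figure D2:**
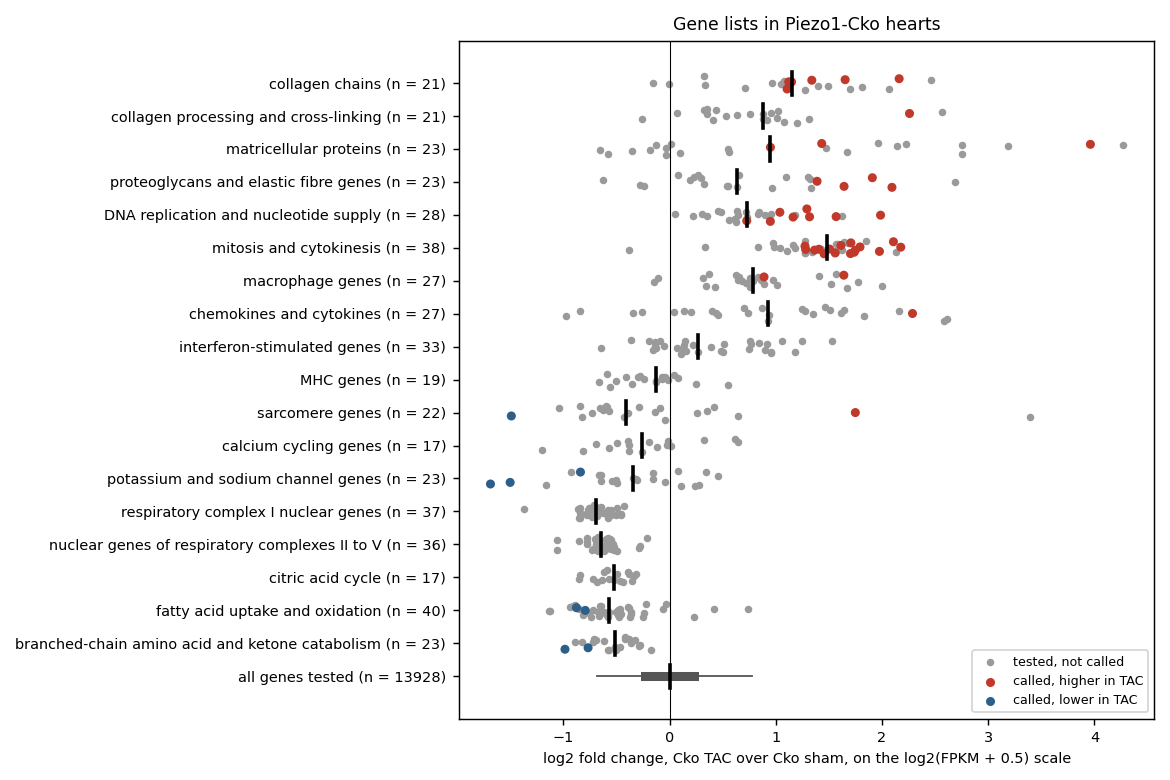
Log2 fold change of Cko TAC over Cko sham for each tested member of 18 gene lists, with called members in red (higher) or blue (lower), other members in grey and the list median as a black bar; the bottom row gives the median, quartiles and 5th to 95th percentiles of all 13928 genes tested. Mitosis genes lie to the right with a median of 1.48 and complex I genes to the left with a median of -0.69, and the complex I row has no coloured point.

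The mitosis list held the most calls of the 46 lists. Of 38 mitosis and cytokinesis genes, 16 rose and none fell, where 0.948% of all genes tested rose. The median log2 fold change was 1.48. Libraries lay wholly higher in Cko TAC for 36 of the 38, against 28.0% of all genes tested. Mki67, the antigen of dividing cells, was at 4.88 and 7.70 FPKM in Cko TAC libraries, against 0.960 and 0.980 in Cko sham libraries (log2 fold change 2.18, SE 0.210, limma adjusted p = 0.0230). Top2a, the topoisomerase that untangles chromosomes, was at 3.97 and 4.50 FPKM in Cko TAC libraries, against 0.579 and 0.616 in Cko sham libraries (2.11, SE 0.191, limma adjusted p = 0.0230). For both genes the sham libraries were nearly equal and the TAC libraries several times higher. The mitotic kinase Aurkb was at 2.23 and 3.73 FPKM in Cko TAC libraries, against 0.421 and 0.310 in Cko sham libraries (1.98). The spindle motor Kif11 had a log2 fold change of 1.70 and the microtubule binder Nusap1 of 1.61. Cenpa, the histone variant of centromeres, was the member with a negative value, at 6.61 and 8.998 FPKM in Cko TAC libraries and 10.5 and 9.94 in Cko sham libraries (-0.38, limma adjusted p = 0.336). The mean log2 difference of the list from the Cko sham mean was 1.21 in Cko TAC replicate 1 and 1.62 in replicate 2, whereas for the macrophage list it was 1.20 and 0.57. Top2a, Aurkb, Kif11 and Nusap1 did not pass without Cko TAC replicate 1 (limma adjusted p 0.0555 to 0.143) and Mki67 did (0.0199).

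Of 28 genes of DNA replication and nucleotide supply, 8 rose and none fell, where 0.948% of all genes tested rose. The median was 0.73. Libraries lay wholly higher in Cko TAC for 27 of the 28, against 28.0% of all genes tested. Uhrf1, which keeps DNA methylation through replication, was at 4.70 and 3.397 FPKM in Cko TAC libraries, against 0.644 and 0.629 in Cko sham libraries (log2 fold change 1.99, SE 0.214, limma adjusted p = 0.0279). The thymidine kinase Tk1 was at 2.68 and 3.50 FPKM in Cko TAC libraries, against 0.665 and 0.741 in Cko sham libraries (1.57). The groups were apart for both genes. The replicative helicase subunits Mcm5 and Mcm4 had log2 fold changes of 1.32 and 1.04, and Tyms, thymidylate synthase, of 1.29. None of 23 G1 genes and cyclin-dependent kinase inhibitors was called, though their median was 0.38 and 19 had libraries wholly higher in Cko TAC. Among them Myc, a transcription factor of growth, was at 4.63 and 2.07 FPKM in Cko TAC libraries, against 0.817 and 0.962 in Cko sham libraries (1.39, limma adjusted p = 0.0603, and 0.0211 without Cko TAC replicate 2). Cdkn1c, an inhibitor of the cell cycle, was at 8.70 and 17.2 FPKM in Cko TAC libraries and 25.4 and 26.4 in Cko sham libraries (-1.05, limma adjusted p = 0.0981, and 0.0319 without Cko TAC replicate 2). Uhrf1, Tk1, Mcm5, Tyms and Mcm4 did not pass without Cko TAC replicate 1 (limma adjusted p 0.143 to 0.181). Tk1 also failed without Cko TAC replicate 2 (0.062) and without WT sham replicate 1 or 2 (0.0522 and 0.0521). Processed pseudogene copies of Mki67, Uhrf1, Tyms and Mcm4 exist, and how the counting split their reads is not stated.

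The 250 bases upstream of the RefSeq start of Top2a, Mki67, Ankrd1 and Timp1 are shown for members that rose in the cell cycle, stretch and protease inhibitor lists (GRCm38.p6, each read 5′ to 3′ on the strand of the gene). Capitals mark the cell cycle motif CHR (TTTGAA), the CCAAT box and the MCAT element CATTCC bound by TEAD factors, each on either strand. The motifs and the genes were chosen after their values were seen. Windows of 10 genes were searched on both strands, also for AP-1 (TGANTCA), STAT (TTCNNNGAA) and the ERR element (AAGGTCA), and those of Tnc and Serpina3n held none of the motifs.
Top2a chr11:99024190-99024439, minus strand: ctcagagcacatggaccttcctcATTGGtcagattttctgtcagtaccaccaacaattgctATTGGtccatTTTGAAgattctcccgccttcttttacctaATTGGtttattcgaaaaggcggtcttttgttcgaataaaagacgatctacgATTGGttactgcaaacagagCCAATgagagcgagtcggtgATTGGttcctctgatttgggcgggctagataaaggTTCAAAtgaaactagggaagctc
Mki67 chr7:135716380-135716629, minus strand: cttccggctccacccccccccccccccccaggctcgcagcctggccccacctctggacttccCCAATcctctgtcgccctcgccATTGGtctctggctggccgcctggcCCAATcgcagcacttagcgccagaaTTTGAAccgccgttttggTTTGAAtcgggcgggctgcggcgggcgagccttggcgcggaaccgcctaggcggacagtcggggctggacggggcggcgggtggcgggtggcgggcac
Ankrd1 chr19:36119845-36120094, minus strand: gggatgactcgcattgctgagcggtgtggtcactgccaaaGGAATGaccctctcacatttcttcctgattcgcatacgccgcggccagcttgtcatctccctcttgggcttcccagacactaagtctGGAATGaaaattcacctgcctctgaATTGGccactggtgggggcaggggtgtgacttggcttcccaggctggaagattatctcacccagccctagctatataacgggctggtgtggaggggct
Timp1 chrX:20869916-20870165, plus strand: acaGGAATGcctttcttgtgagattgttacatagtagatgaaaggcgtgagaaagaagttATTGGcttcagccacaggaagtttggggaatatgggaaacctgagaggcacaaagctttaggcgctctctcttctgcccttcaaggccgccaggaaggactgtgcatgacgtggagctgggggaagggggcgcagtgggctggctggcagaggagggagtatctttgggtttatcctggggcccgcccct
The Top2a window held 6 CCAAT boxes and 2 CHR elements, and the Mki67 window 3 and 2. The Ankrd1 window held 2 MCAT elements, and that of Timp1 held 1. A window could be matched for 10122 tested genes, among them 159 called genes. CCAAT boxes were in 9 of the 12 windows of called mitosis genes (75%) and in 36.4% of all windows, and CHR elements in 4 of the 12 (33.3%) and in 10.5% of all windows. Over the 108 windows of genes that rose and all windows, MCAT elements were in 15.7% and 10.6%, AP-1 in 7.41% and 4.12%, and STAT in 4.63% and 5.68%. Over the 51 windows of genes that fell, MCAT was in 13.7%, AP-1 in 9.80% and STAT in 1.96%. CCAAT boxes were in 46.3% of windows of genes that rose and 43.1% of those that fell, and CHR elements in 18.5% and 13.7%. The ERR element was in 9.80% of the 51 windows of genes that fell, in none of those that rose and in 2.64% of all windows. A match is a description of the letters and not a sign of binding.

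Calls in the immune lists came from macrophage, complement, chemokine and IL-6 genes, where 0.948% of all genes tested rose. Of 27 macrophage genes 2 rose and none fell, with a median of 0.79. Of the 27, 24 had libraries wholly higher in Cko TAC, where 28.0% of all genes tested did. Cd68, a lysosomal protein of macrophages, was at 26.5 and 21.3 FPKM in Cko TAC libraries, against 8.36 and 6.34 in Cko sham libraries (log2 fold change 1.64, SE 0.240, limma adjusted p = 0.0338). Fcer1g, the signalling chain of Fc receptors, was at 50.9 and 38.2 FPKM in Cko TAC libraries, against 22.6 and 24.6 in Cko sham libraries (0.89). The monocyte receptor Ccr2 was uneven, at 12.8 and 2.44 FPKM in Cko TAC libraries and 0.859 and 1.29 in Cko sham libraries, and was not called (2.00, SE 0.596, limma adjusted p = 0.115). It passed when Cko TAC replicate 2 was left out (3.09, limma adjusted p = 0.018) and had 0.91 when replicate 1 was. The complement list had 2 rises among 17 members and a median of 0.46. These were C1qb and C1qc, subunits of the complement starter C1q that tissue macrophages make, with log2 fold changes of 0.93 and 0.77. Cd68, Fcer1g, C1qb and C1qc did not pass without Cko TAC replicate 1 (limma adjusted p 0.171 to 0.198), and Fcer1g, C1qb and C1qc failed without WT sham replicate 1 or 2 (0.0522 to 0.0636). C1qc also failed without Cko TAC replicate 2 (0.0526). The 6 macrophage markers were Adgre1, Cd68, Csf1r, Cd163, Mrc1 and Lyz2. They summed to 645 and 402 FPKM in Cko TAC libraries, against 283 and 285 FPKM in Cko sham libraries, all 6 with libraries apart. Most of each sum was Lyz2, at 567 and 346 FPKM in Cko TAC libraries and 246 and 252 in Cko sham libraries. Cd68 alone of the 6 was called. The part of these markers in the changes of other genes was not tested.

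Of 27 chemokine and cytokine genes, Cxcl10 alone was called, and the median was 0.92. Cxcl10, a chemokine that draws T cells and lies in the span of Art3, was at 5.44 and 3.39 FPKM in Cko TAC libraries, against 0.551 and 0.435 in Cko sham libraries (log2 fold change 2.28, SE 0.303, limma adjusted p = 0.0296). The monocyte chemokine Ccl2 was at 43.7 and 13.02 FPKM in Cko TAC libraries, against 4.07 and 2.98 in Cko sham libraries, and was not called (2.61, SE 0.552, limma adjusted p = 0.0609). Ch25h, which makes 25-hydroxycholesterol in activated macrophages, was at 9.88 and 3.90 FPKM in Cko TAC libraries, against 0.677 and 1.06 in Cko sham libraries (2.32, SE 0.407, limma adjusted p = 0.0462). In the IL-6 family and STAT3 list, 1 of 16 members rose, with a median of 0.44. That was Socs3, the feedback inhibitor of cytokine receptors, at 14.3 and 7.11 FPKM in Cko TAC libraries, against 2.82 and 2.03 in Cko sham libraries (1.87, SE 0.324, limma adjusted p = 0.0453). In all of these genes replicate 1 was the higher TAC library. None of 33 interferon-stimulated genes (median 0.26) or 19 MHC genes (median -0.13) was called. Since 1.49% of all genes tested were called, no call in lists of this size is no result about their genes. In the interferon list 18 genes had libraries wholly higher in Cko TAC and 4 wholly lower, against 28.0% and 28.3% of all genes tested. Cxcl10, itself induced by interferon, is not in that list. Cxcl10, Ch25h and Socs3 did not pass without Cko TAC replicate 1 (limma adjusted p 0.16 to 0.172), and Ch25h and Socs3 failed without WT sham replicate 1 or 2 (0.0563 to 0.0593). The log2 fold change of Ch25h was 1.70 without Cko TAC replicate 1 and 2.94 without replicate 2. Ccl2 passed without Cko TAC replicate 2 (0.0318) and without WT TAC replicate 1 or 2 (0.0491 and 0.0487), with 1.76 without Cko TAC replicate 1 and 3.47 without replicate 2.

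Some genes of the cytoskeleton and of calcium-binding annexin and S100 proteins rose, where 0.948% of all genes tested did. Vim, the intermediate filament of fibroblasts and other non-muscle cells, was at 238 and 245 FPKM in Cko TAC libraries, against 99.7 and 104 in Cko sham libraries (log2 fold change 1.24, SE 0.166, limma adjusted p = 0.0296). Both pairs of libraries were tight. Tmsb10, an actin-monomer binder, was the other call among 23 tubulin and cytoskeleton genes (0.91; list median 0.57). Among 19 genes of the galectin and S100 list, Anxa1 and S100a11 rose, with log2 fold changes of 1.17 and 1.20 and a list median of 0.73. Anxa1 was at 39.1 and 32.0 FPKM in Cko TAC libraries, against 13.4 and 17.7 in Cko sham libraries. Without Cko TAC replicate 1 all 4 failed (limma adjusted p 0.156 to 0.16), and S100a11 and Tmsb10 failed without Cko TAC replicate 2 (0.0554 and 0.0587) and without WT sham replicate 1 or 2 (0.0522 to 0.0529).

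Among muscle genes of the hypertrophy programme, Ankrd1, Acta1 and Nppa had large log2 fold changes, and of these Ankrd1 alone was called. Ankrd1, a stretch-responsive protein of the titin filament, was at 1815 and 1404 FPKM in Cko TAC libraries, against 209 and 450 in Cko sham libraries (log2 fold change 2.38, SE 0.414, limma adjusted p = 0.0453). It was the call among 19 stretch and Z-disc genes (median 0.36), where 1.49% of all genes tested were called. The skeletal actin Acta1 was at 841 and 1154 FPKM in Cko TAC libraries, against 48.7 and 177 in Cko sham libraries, and was not called (3.398, SE 0.626, limma adjusted p = 0.0514). Nppa, the atrial natriuretic peptide gene, was at 742 and 515 FPKM in Cko TAC libraries, against 97.9 and 102 in Cko sham libraries (2.62, SE 0.504, limma adjusted p = 0.0535). Both sets of libraries were apart, with adjusted p just above the threshold. Nppb, for the brain natriuretic peptide, overlapped between groups, at 1023 and 586 FPKM in Cko TAC libraries and 630 and 348 in Cko sham libraries (0.73, limma adjusted p = 0.407). Myh7, the slow myosin of the fetal mouse ventricle, was at 32.5 and 16.6 FPKM in Cko TAC libraries, against 15.6 and 13.7 in Cko sham libraries (0.65, limma adjusted p = 0.602). Ankrd1 did not pass without Cko TAC replicate 1 or 2 (limma adjusted p = 0.225 and 0.0615) or without WT sham replicate 1 or 2 (0.0594 and 0.0592). Without WT TAC replicate 1 or 2, Nppa (0.0128 and 0.0125) and Acta1 (0.0486 each) passed. Acta1 had a log2 fold change of 2.47 when Cko sham replicate 1 was left out and of 4.32 when replicate 2 was.

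Of 22 sarcomere genes, 1 rose and 1 fell, where 0.948% of all genes tested rose and 0.546% fell. The median was -0.41. Libraries lay wholly lower in Cko TAC for 14 of the 22, against 28.3% of all genes tested. Mybpc2, the fast skeletal form of myosin-binding protein C, was at 9.69 and 11.01 FPKM in Cko TAC libraries, against 2.08 and 3.53 in Cko sham libraries (log2 fold change 1.75, SE 0.244, limma adjusted p = 0.0338). Myh7b, a slow-type myosin that overlaps Trpc4ap, was at 3.06 and 5.78 FPKM in Cko TAC libraries, against 13.9 and 11.8 in Cko sham libraries (-1.49, SE 0.266, limma adjusted p = 0.0479). The groups were apart for both. Of 17 calcium cycling genes none was called (median -0.26), with Hrc, a calcium-binding protein of the sarcoplasmic reticulum, at 130 and 180 FPKM in Cko TAC libraries and 360 and 344 in Cko sham libraries (-1.20, limma adjusted p = 0.0753). Of 23 potassium and sodium channel genes, 3 fell and none rose, with a median of -0.35. Kcnip2, the partner of the channels that carry the transient outward current, was at 16.5 and 23.9 FPKM in Cko TAC libraries, against 54.1 and 60.4 in Cko sham libraries (-1.50, SE 0.190, limma adjusted p = 0.0296). Kcnv2, a modifier subunit of voltage-gated potassium channels, was at 0.414 and 0.283 FPKM in Cko TAC libraries, against 2.40 and 2.06 in Cko sham libraries (-1.69). Kcnk3, a background potassium channel, was at 30.3 and 36.1 FPKM in Cko TAC libraries, against 60.1 and 59.1 in Cko sham libraries (-0.84). Among 12 mechanosensitive channel genes, Piezo1 included, none was called (median -0.09). Mybpc2, Myh7b, Kcnip2, Kcnv2 and Kcnk3 did not pass without Cko TAC replicate 1 (limma adjusted p 0.146 to 0.231). Mybpc2 failed without Cko TAC replicate 2 (0.0546), and Myh7b and Kcnk3 without WT sham replicate 1 or 2 (0.0614 to 0.0638). Hrc passed without WT TAC replicate 1 or 2 (0.0329 and 0.0324).

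No gene of the respiratory chain or the citric acid cycle was called, although most had lower values in Cko TAC. All 37 nuclear genes of respiratory complex I had libraries wholly lower in Cko TAC, where 28.3% of all tested genes did, with log2 fold changes between -1.37 and -0.43 and a median of -0.69. None of the 37 was called, and 32 had an unadjusted p under 0.05. Ndufv1, a core subunit, was at 187 and 211 FPKM in Cko TAC libraries, against 352 and 317 in Cko sham libraries (-0.75, SE 0.168, limma adjusted p = 0.0676). Of 36 nuclear genes of complexes II to V, 35 had libraries wholly lower in Cko TAC and none was called (median -0.65), and the same held for 17 of 17 citric acid cycle genes (median -0.53). The mean log2 difference of the complex I list from the Cko sham mean was -0.90 in Cko TAC replicate 1 and -0.48 in replicate 2. Of 13 mitochondrially encoded genes 8 had libraries wholly lower in Cko TAC (median -0.54), and mitochondrial genes took 18.1% and 19.9% of reads in Cko TAC libraries, against 24.4% and 21.2% in Cko sham libraries. The 6 cardiomyocyte markers Myh6, Tnnt2, Tnni3, Actc1, Ryr2 and Pln had libraries wholly lower in Cko TAC too, and none was called. They summed to 8165 and 9159 FPKM in Cko TAC libraries and 11829 and 12035 in Cko sham libraries. Actc1 hardly differed, at 4843 and 4484 FPKM against 4866 and 5075 (-0.09, limma adjusted p = 0.814). The part of these markers in the lower mitochondrial values was not tested.

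A few enzymes of fuel use were called. The 40 genes that take up and oxidize fatty acids held 2 that fell and none that rose, where 0.546% of all genes tested fell. Their median was -0.57. Libraries lay wholly lower in Cko TAC for 34 of the 40, against 28.3% of all genes tested. Slc27a1, a fatty acid transporter, was at 10.7 and 11.99 FPKM in Cko TAC libraries, against 20.2 and 19.9 in Cko sham libraries (log2 fold change -0.79, SE 0.112, limma adjusted p = 0.0338). Cpt1b, the muscle form of the enzyme that lets long fatty acids into mitochondria, was at 1.08 and 1.20 FPKM in Cko TAC libraries, against 2.30 and 2.73 in Cko sham libraries (-0.88), and its span overlaps another coding gene. Of 30 glycolysis and pyruvate genes 1 fell, Pfkm, the muscle phosphofructokinase, at 126 and 125 FPKM in Cko TAC libraries, against 208 and 211 in Cko sham libraries (-0.74; list median -0.31). Of 23 genes of branched-chain amino acid and ketone catabolism 2 fell, with a median of -0.51. Bckdhb, a subunit of the branched-chain keto acid dehydrogenase, was at 17.5 and 20.04 FPKM in Cko TAC libraries, against 39.8 and 35.5 in Cko sham libraries (-0.99, SE 0.128, limma adjusted p = 0.0296). Mccc2, of leucine breakdown, had -0.77. In the opposite direction, the serine synthesis enzyme Psat1 was the call among 21 ATF4 response genes (median 0.36), at 4.23 and 2.86 FPKM in Cko TAC libraries, against 1.04 and 1.15 in Cko sham libraries (1.32, limma adjusted p = 0.0424). Slc27a1, Cpt1b, Pfkm, Bckdhb, Mccc2 and Psat1 did not pass without Cko TAC replicate 1 (limma adjusted p 0.156 to 0.216). Cpt1b and Pfkm failed without Cko TAC replicate 2 (0.062 and 0.0612), and Cpt1b, Pfkm, Mccc2 and Psat1 without WT sham replicate 1 or 2 (0.0589 to 0.0636).

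Further called falls outside the lists, chosen after their values were seen, included regulators of mitochondria and of cardiac kinases. Pink1, a kinase that marks damaged mitochondria, was at 149 and 167 FPKM in Cko TAC libraries, against 314 and 276 in Cko sham libraries (log2 fold change -0.90). Perm1, a muscle regulator of mitochondrial genes, was at 36.5 and 34.5 FPKM in Cko TAC libraries, against 61.3 and 59.0 in Cko sham libraries (-0.75). Camk2n1, an inhibitor of CaM kinase II, was at 5.78 and 5.64 FPKM in Cko TAC libraries, against 12.4 and 11.6 in Cko sham libraries (-1.01). Tnni3k, a heart kinase that binds troponin I, was at 17.3 and 18.0 FPKM in Cko TAC libraries, against 28.5 and 31.7 in Cko sham libraries (-0.75). All 4 had tight pairs of libraries that were apart. They did not pass without Cko TAC replicate 1 (limma adjusted p 0.152 to 0.213), and Pink1, Perm1 and Tnni3k failed without Cko TAC replicate 2 (0.0503 to 0.0664) and without WT sham replicate 1 or 2 (0.0522 to 0.063).

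Retinoic acid and xenobiotic metabolism held the largest fall among the named genes and also a large rise. Of 20 members 1 rose and 3 fell, where 0.948% of all genes tested rose and 0.546% fell, and the median was -0.20. Inmt, which methylates tryptamine and other amines, was at 1.76 and 0.398 FPKM in Cko TAC libraries, against 18.2 and 17.4 in Cko sham libraries (log2 fold change -3.68, SE 0.399, limma adjusted p = 0.0279). Cyp1a1, an enzyme induced by the aryl hydrocarbon receptor, was at 0.0973 and 0.0415 FPKM in Cko TAC libraries, against 1.29 and 2.25 in Cko sham libraries (-1.96). Fmo2, a flavin monooxygenase, was at 4.65 and 4.87 FPKM in Cko TAC libraries, against 12.9 and 10.5 in Cko sham libraries (-1.21). Aldh1a2, which makes retinoic acid, was at 34.4 and 15.1 FPKM in Cko TAC libraries, against 2.71 and 2.54 in Cko sham libraries (2.90, SE 0.383, limma adjusted p = 0.0296). Each of these 4 had groups that were apart. The log2 fold change of Inmt was -4.35 without Cko TAC replicate 1 and -3.01 without replicate 2. Without Cko TAC replicate 1, Cyp1a1, Fmo2 and Aldh1a2 did not pass (limma adjusted p 0.143 to 0.198), and without replicate 2 Cyp1a1 did not (0.0707).

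The other large falls came from unrelated genes. Penk, the precursor of enkephalins, was at 2.06 and 1.20 FPKM in Cko TAC libraries, against 10.6 and 6.996 in Cko sham libraries (log2 fold change -2.13). Enpp2, the lysophosphatidic acid producer autotaxin, was at 0.479 and 0.501 FPKM in Cko TAC libraries, against 2.69 and 2.28 in Cko sham libraries (-1.59). Dpep1, a membrane dipeptidase, was at 15.0 and 15.6 FPKM in Cko TAC libraries, against 40.4 and 43.9 in Cko sham libraries (-1.43). The groups were apart in each. Ttll1, which adds glutamate to tubulin, had -1.61, the membrane protein gene Ano10 -1.49, Tbc1d10c -1.73, Armc2 -1.35 and BB218582 -1.49. Without Cko TAC replicate 1 these 8 genes had a limma adjusted p of 0.0785 to 0.186. Tbc1d10c and Enpp2 failed without Cko TAC replicate 2 (0.0506 and 0.0569) and Ttll1 without WT sham replicate 1 or 2 (0.0593 and 0.0589).

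Several further lists had no call. Since 1.49% of all genes tested were called, a list of this size with none is no result about its genes. None of 28 immediate early genes (median 0.32), 26 heat shock and redox genes (0.39), 21 ER chaperone and unfolded protein genes (0.32), 25 endothelial genes (-0.17) or 19 adrenergic, angiotensin and endothelin genes (-0.17) was called. The same was true of 18 cardiac transcription factors (-0.16), 17 calcineurin, NFAT and MEF2 genes (-0.02), 18 core clock genes (0.54), 7 natriuretic peptide and receptor genes (0.02), 11 creatine and adenylate kinase genes (-0.21) and 24 growth factor and receptor genes (0.12). In the last list Igfbp2, a binding protein of insulin-like growth factors, was at 3.49 and 1.94 FPKM in Cko TAC libraries and listed at 0 in both Cko sham libraries (limma adjusted p = 0.0514). It passed without WT TAC replicate 1 or 2 (0.0172 and 0.0170).

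**Figure D3:**
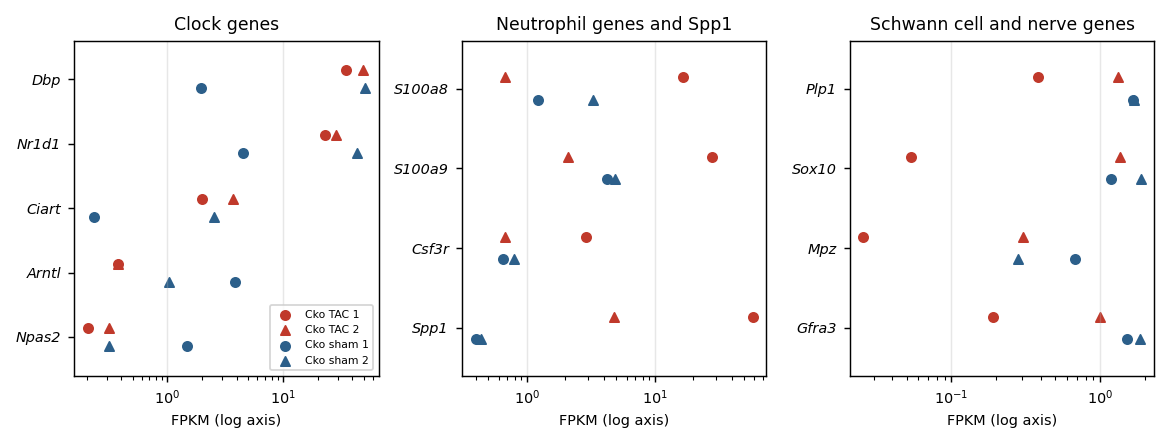
FPKM on a log axis in each Cko TAC library (red) and each Cko sham library (blue) for clock genes, for neutrophil genes with Spp1, and for Schwann cell and nerve genes; circles are replicate 1 and triangles replicate 2. Cko sham replicate 1 lies apart for the clock genes, at 1.94 FPKM for Dbp against 51.1 in replicate 2, and Cko TAC replicate 1 lies apart for the neutrophil and nerve genes.

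Libraries of a group differed from each other in patterned ways, shown for genes picked after their values were seen. Dbp, an output gene of the circadian clock, was at 35.5 and 49.9 FPKM in Cko TAC libraries, against 1.94 and 51.1 in Cko sham libraries. Arntl, a core clock activator that peaks when Dbp is low, was at 0.375 and 0.377 FPKM in Cko TAC libraries, against 3.89 and 1.04 in Cko sham libraries. Cko sham replicate 1 thus lay apart for both genes, and the part of clock phase in the comparison was not tested. The 5 neutrophil markers summed to 48.0 and 3.45 FPKM in Cko TAC libraries, against 6.12 and 8.97 in Cko sham libraries. The 4 Schwann cell and nerve markers summed to 0.651 and 3.98 FPKM in Cko TAC libraries, against 5.01 and 5.67 in Cko sham libraries. Cko TAC replicate 1 was thus the highest for the neutrophil markers and the lowest for the nerve markers, none of which was called. It was farther from the Cko sham mean than replicate 2 for 123 of the 208 called genes. The same share over all genes tested was not taken, so this count is no trait of the called genes.

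WT hearts were compared with TAC in the same fit, where 1842 genes were called (13.2% of those tested), 776 higher (5.57%) and 1066 lower (7.65%). Of the 132 genes that rose in Cko hearts 109 rose in WT hearts as well, 82.6% of the Cko list and 14.05% of the WT list. Of the 76 that fell in Cko hearts 62 fell in WT hearts, 81.6% of the Cko list and 5.82% of the WT list. Without WT sham replicate 1, WT hearts had 494 calls, and 69 of the 132 and 35 of the 76 were among them. Without WT sham replicate 2 these counts were 185, 49 and 19, without WT TAC replicate 1 they were 74, 33 and 7, and without WT TAC replicate 2 they were 1327, 89 and 46. Cko libraries enter the WT calls through the shared spread only. WT calls were fewer without Cko sham replicate 1 or 2 and more without Cko TAC replicate 1 or 2. They were fewest with WT sham replicate 1 and WT TAC replicate 1 left out together, and the overlap with the Cko list was then lost. None of the 208 had the opposite sign in WT, and 113 had the larger absolute fold change in Cko. The 208 were chosen by their Cko values, which favours larger fold changes in Cko, so the count of 113 does not compare the genotypes. The Cko and WT comparisons share the estimate of spread but no library. The test of the difference itself called 1 gene (0.00718% of those tested), with 664 (4.77%) at an unadjusted p under 0.05. That gene was Gapdh, a glycolytic enzyme often used as a reference, at 2.32 and 2.25 FPKM in Cko TAC libraries and 2.31 and 2.84 in Cko sham libraries, against 1.77 and 1.55 in WT TAC libraries and 81.1 and 122 in WT sham libraries. The WT sham libraries alone were above 2.84 FPKM. Gapdh has 179 processed pseudogene copies and overlaps the coding gene Iffo1, and how reads shared with them were counted is not given in the sources used here, so these values are uncertain as levels of the gene; the part of shared reads in the difference was not tested.

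**Figure D4:**
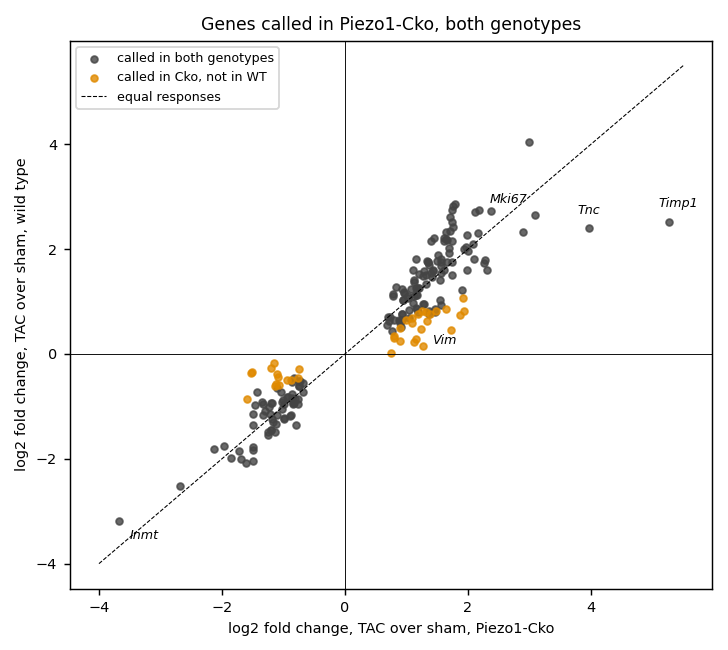
Log2 fold change of TAC over sham in Piezo1-Cko (x axis) and in wild type (y axis) for the 208 genes called in Piezo1-Cko, grey where also called in wild type and orange where not; the dashed line marks equal responses. All points share the sign of both axes, and Timp1 lies farthest below the line.

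The genes called in Cko and not in WT numbered 37, 23 higher and 14 lower, and for none of them did the difference of responses pass (limma adjusted p of at least 0.911 for each gene named here). Timp1, called in both, had the widest gap among the 208 genes, at 45.2 and 61.3 FPKM in WT TAC libraries, against 8.16 and 9.37 in WT sham libraries (difference of log2 responses 2.75, SE 0.574, limma adjusted p = 0.911). Vim was at 155 and 175 FPKM in WT TAC libraries, against 137 and 103 in WT sham libraries, a response 0.77 smaller on the log2 scale than in Cko (SE 0.234). Socs3 was at 6.71 and 7.15 FPKM in WT TAC libraries, against 3.19 and 4.85 in WT sham libraries (difference 1.13, SE 0.458). Ripk3, a kinase of necroptosis chosen after its values were seen, was at 6.60 and 7.25 FPKM in Cko TAC libraries and 2.39 and 2.76 in Cko sham libraries, against 2.58 and 4.05 in WT TAC libraries and 2.70 and 3.08 in WT sham libraries (difference 1.12, SE 0.281). Values ran the other way for Nppb, at 1628 and 951 FPKM in WT TAC libraries and 219 and 428 in WT sham libraries (difference -1.29, SE 0.655), and for Myh7, at 266 and 56.7 FPKM in WT TAC libraries and 24.6 and 24.9 in WT sham libraries (difference -1.64, SE 0.902). The difference for Myh7 was -0.53 without WT TAC replicate 1 and -2.75 without replicate 2, and that for Nppb was -0.81 without WT sham replicate 1 and -1.78 without replicate 2. The difference for Timp1 was 2.03 without Cko TAC replicate 1 and 3.47 without replicate 2, and that for Socs3 was 0.65 and 1.61. In none of these 6 genes was the response shown to differ between genotypes. Vim, Socs3 and Ripk3 were not called in Cko without Cko TAC replicate 1 (limma adjusted p 0.156 to 0.172), Ripk3 not without replicate 2 (0.0631), and Socs3 and Ripk3 not without WT sham replicate 1 or 2 (0.0533 to 0.0568).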

How the data were processed

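Per the labels, heart RNA came from a Trizol extraction, and a NEBNext Ultra kit took 1 microgram of it per library. The submitters' processing notes list mm10 and mm8 as builds and, as tools, featureCounts 1.5.0-p3, Bowtie 0.12.2 and CASAVA 1.8, without saying what each did; strand setting and scaling are not given in the sources used here. The authors deposited 1 table of FPKM values for 54532 genes and 8 libraries. Of 54495 gene identifiers shared with mouse GENCODE release 21 (GRCm38), 53585 had the same coordinates. Multiplied by gene length, 100% of the deposited FPKM values above 0 fell on steps of 1 read (tolerance 0.01 read), which gave reads per gene, 15574769 to 17313084 per library, on a library size of 0.886 to 1.10 times those totals. Precision from read totals covers counting error only; within the Cko pairs, libraries differed by more than that (chi-square per degree of freedom 31.2 in Cko TAC and 17.3 in Cko sham), so none is a copy.

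Genes reaching 0.5 FPKM and 10 recovered reads in 2 or more of the 8 libraries were tested on log2(FPKM + 0.5) with limma 3.58.1 in R 4.3.3 (1 mean per group over all 8 libraries, 4 residual degrees of freedom, intensity trend, robust moderation), two-sided, with Benjamini-Hochberg adjustment and a threshold of 0.05. The steps were tested on simulated data, where the share of false calls at 2 libraries a group came out somewhat above the threshold set. Members, 46 gene lists and tests were chosen with earlier results of these data known. Named genes are Piezo1, 12 textbook genes of pressure overload, the 12 largest called rises and falls with a mean of at least 1 FPKM in Cko libraries (predicted genes and pseudogenes left out), up to 5 called members per list by p (else the member with the smallest p) and the leading genes of the difference of responses; other genes are said to be chosen after their values were seen, and so were further list members given as not called, and the genes of the clock plot. The largest rises and falls were also required to have Cko libraries that do not overlap between groups. Lists are described by counts and medians, with no set test. Of the 64 named genes called, 33 overlap another listed gene, 10 of them a protein-coding one, and 6 have a processed pseudogene copy (minimap2 2.31-r1302, identity of 90% or more across 50% or more of its length), so reads could be shared. Upstream windows are from RefSeq (GRCm38.p6). Alternatives were other scalings, filters, pseudocounts (0.1 and 1 FPKM) and moderation, limma-voom on the recovered reads, protein-coding genes alone, the 4 Cko libraries alone, each library left out, a block for replicate number, and, chosen after seeing the data, 1 WT library of each surgery left out together.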

Additional observations from a re-analysis of the deposited data

Results flagged for a closer look

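The difference of TAC responses between genotypes passed for Gapdh, with a log2 value of 5.40 (Cko response minus WT response, SE 0.286, limma adjusted p = 0.00176). Gapdh was at 2.32 and 2.25 FPKM in Cko TAC libraries and 2.31 and 2.84 FPKM in Cko sham libraries, against 1.77 and 1.55 FPKM in WT TAC libraries and 81.1 and 122 FPKM in WT sham libraries. It is listed because a test of the difference itself passed. With 179 processed pseudogene copies and an overlap with Iffo1, the level of Gapdh in these files is uncertain, and the part of shared reads in the difference was not tested. The 2 genes next in order of p did not pass: Aplnr, the apelin receptor (difference -1.45, limma adjusted p = 0.845), and Rps27, a ribosomal protein gene (1.43, limma adjusted p = 0.911).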

How the results depend on the processing

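The 208 calls in Cko hearts, 132 higher and 76 lower, changed by more than 1.5 times under many settings; the cause was not tested unless the setting itself shows it (fewer samples or other genes tested). The total, higher and lower counts were 382, 232 and 150 with limma-voom, 0, 0 and 0 where low values were not filtered, 117, 77 and 40 with no read minimum, 379, 242 and 137 with protein-coding genes alone, and 397, 244 and 153 with the 4 Cko libraries alone. Scaling to total reads gave 513 in all and 443 higher. Leaving out each library in turn gave 0 to 378 calls, 0 to 248 higher and 0 to 130 lower; the library then alone in its group is assumed to vary like the other groups. Leaving out WT sham replicate 1 and WT TAC replicate 1 together, chosen after seeing the data, gave 397, 241 and 156. Samples share only a replicate number, with a correlation of 0.0256 between the deviations of same-numbered Cko TAC and Cko sham libraries; the replicate block gave 236 calls, 142 of them higher, and 10 of the 64 named calls did not pass under it. The difference of responses was called for 2 genes with no filter, 3 with no read minimum, 2 with 1 FPKM in 4 libraries and 1 to 3 with a library left out. With a library left out, the median log2 fold change of the ER chaperone list ranged from -0.0044 (without Cko TAC replicate 1) to 0.50 and that of the clock list from -0.0705 (without Cko sham replicate 1) to 1.16. With no filter on low values, limma called none of the 64 named genes called otherwise.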

Other observations

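Some called genes outside every list rose in both Cko TAC libraries and are given as values, chosen after they were seen. Emp1, an epithelial membrane protein, was at 53.5 and 47.4 FPKM in Cko TAC libraries, against 15.4 and 15.8 FPKM in Cko sham libraries (log2 fold change 1.66, limma adjusted p = 0.0296). Fgl2, a fibrinogen-like protein made by macrophages and T cells, was at 37.0 and 27.5 FPKM in Cko TAC libraries, against 9.84 and 11.1 FPKM in Cko sham libraries (1.57, limma adjusted p = 0.026). Rac2, a GTPase of blood-derived cells, was at 5.61 and 4.10 FPKM in Cko TAC libraries, against 1.60 and 1.52 FPKM in Cko sham libraries (1.37, limma adjusted p = 0.0296). The groups were apart in each. None of these 3 passed without Cko sham replicate 1 (limma adjusted p 0.226 to 0.253), Cko sham replicate 2 (0.131 to 0.164) or Cko TAC replicate 1 (0.0785 to 0.16).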
